A study of Mus musculus with 12 samples.

Results

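The liver X receptors LXRα and LXRβ and a small group of the genes they are known to switch on were followed in mouse bone marrow-derived macrophages given the osteoclast cytokine RANKL, with or without an inhibitor. The genes were chosen by symbol, not by their values: the receptors Nr1h3 (LXRα) and Nr1h2 (LXRβ), the transporters Abca1 and Abcg1, the apolipoproteins Apoe and Apoc2, and the further targets Mylip and Lpcat3. The 8 genes described are among 16570 in the table, and all 8 passed the filter on low counts.

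RNA was sequenced from 12 libraries of cells grown from the bone marrow of C57BL/6J mice aged 6 to 8 weeks, 3 libraries for each of 4 cultures. All cells received the macrophage growth factor M-CSF at 50 ng/mL for 2 days. The first group received nothing else, and the other 3 also received RANKL at 100 ng/mL, alone, with 1 µM BMS309403, a blocker of the lipid-binding protein FABP4, or with 1 µM RHC80267, a blocker of diacylglycerol lipase. The labels' treatment notes give 2 days for every culture, but their growth notes give 4 days of RANKL for osteoclasts, so how long these cells had RANKL is uncertain. No dose series or second time was measured, and no vehicle is named for the cultures without an inhibitor. Whether the 3 libraries of a group are separate cultures, separate animals or repeats of 1 culture is not stated, and the p-values therefore cover the spread among these libraries, which may be technical only.

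LXRs are nuclear receptors that are activated by oxidised forms of cholesterol and by some of its precursors, and that bind DNA as a pair with the retinoid X receptor RXR. In macrophages, which take up large amounts of cholesterol from dead cells and lipoproteins, their targets carry the excess out of the cell: ABCA1 and ABCG1 move cholesterol across the membrane to lipoprotein acceptors, and apolipoprotein E is secreted and carries it away. Other targets lower cholesterol uptake (MYLIP, a ubiquitin ligase for lipoprotein receptors) or change membrane phospholipids (LPCAT3).

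Total expected counts were 17760844 to 18344989 per library, and the level of a gene is given as CPM, its counts relative to the library size after TMM adjustment. Of 8 osteoclast markers, the summed level was 93.4 to 111 CPM with M-CSF. It was 8109 to 10062 CPM in the RANKL cultures, 6620 to 7463 CPM when BMS309403 was added and 15855 to 17928 CPM when RHC80267 was. The cultures with RANKL are labelled osteoclast and those without it macrophage, and all 8 osteoclast markers rose with RANKL. All 7 macrophage markers were detected in every group, and their summed level in the same order of groups was 30962 to 31437, 24665 to 26313, 27309 to 28893 and 19812 to 20856 CPM. Most of this sum is Lyz2, with means of 21943, 19090, 21243 and 14338 CPM. The single markers did not all follow the sum, as Cd68 was lowest with M-CSF (1186 CPM) and Mertk was highest with RHC80267 (178 CPM). Summed neutrophil markers were 1082 to 1562, 1430 to 1639, 1478 to 1594 and 681 to 1013 CPM in the same order, with 7 of 9 called lower with RHC80267 than with RANKL, and summed stromal markers were at most 28.6 CPM except with RHC80267, where they were 26.4 to 78.6 CPM. In bulk RNA, fewer cells of a type and less RNA per cell cannot be told apart, and the part of these cell types in the values below was not tested.

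Where LXR binds near a gene, its element is a direct repeat of AGGTCA with 4 bases between (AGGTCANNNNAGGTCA, called DR4). Start regions of 300 bases, 250 before and 50 after the start, were taken from RefSeq (GRCm38.p6) for 7 of the 8 genes. With up to 3 mismatches in the 12 fixed bases, on both strands, the motif was found in the region of Abca1 and not in those of Nr1h2, Nr1h3, Apoe, Apoc2, Mylip or Lpcat3. Of all 32851 start regions 21.9% held such a match, and 3.02% held one with up to 2 mismatches. The limit was set with the Abca1 element known, and a match is a description, not a site shown to be bound. The 250 bases before the start of Abca1 and Mylip are shown because these are the 2 genes of the 8 that fell with RHC80267, with the DR4 match in capitals. Both are read on the strand of their gene.
Abca1, chr4:53159896-53160145, minus strand: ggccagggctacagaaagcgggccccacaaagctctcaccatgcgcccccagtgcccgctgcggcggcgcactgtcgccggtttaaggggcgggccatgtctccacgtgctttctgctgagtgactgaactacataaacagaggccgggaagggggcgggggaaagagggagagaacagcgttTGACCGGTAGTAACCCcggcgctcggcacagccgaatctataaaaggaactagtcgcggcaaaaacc
Mylip, chr13:45389492-45389741, plus strand: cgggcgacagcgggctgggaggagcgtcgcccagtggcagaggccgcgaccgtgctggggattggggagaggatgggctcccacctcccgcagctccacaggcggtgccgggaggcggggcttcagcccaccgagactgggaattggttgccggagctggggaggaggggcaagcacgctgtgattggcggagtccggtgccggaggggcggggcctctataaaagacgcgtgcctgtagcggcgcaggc
Positions are counted from the start used by RefSeq's table, which for Mylip is the 5′ end of the gene and for Abca1 lies at chr4:53159895, 93 bases inside the 5′ end of the gene model given with its values below. The starts used for Nr1h3 and Apoe lie 7713 to 7794 and 2122 to 2912 bases inside their gene models, whose outermost starts were not searched. The Abca1 match lies 67 to 52 bases before the start used and reads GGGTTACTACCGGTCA on the other strand, with 3 mismatches. The Abca1 region also holds the E-box CACGTG, 147 to 142 bases before the start, as did 7.15% of all regions.

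The first question is how these genes stood in macrophages given RANKL, compared with M-CSF alone. LXRα RNA rose 3.72-fold, while LXRβ and 4 of the 6 target genes fell, with Apoe decreased by 56.8% and Mylip decreased by 50.3%. A gene was called at an adjusted p below 0.05 over all 12168 genes tested with edgeR's quasi-likelihood test. By this rule 1 gene rose, 5 fell and 2 were not called, where 61.2% of all genes tested were called, 31.4% higher and 29.8% lower. The libraries did not overlap for 7 of the 8 genes, as for 65.7% of all genes.

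The comparisons of each inhibitor with RANKL alone ask what it changes in cells that also receive RANKL, and both use the same 3 RANKL libraries. With BMS309403, 4 of the 8 genes rose by 10.4% to 19.8% and none fell, where 7.23% of all genes tested were called, 3.49% higher and 3.74% lower, and these 4 were the genes whose libraries did not overlap, as did not those of 23.2% of all genes. Of these 4 calls, that of Apoe held without RANKL replicate 1 and without BMS309403 replicate 2, and those of Nr1h2, Abca1 and Mylip were lost in each of these fits. With RHC80267, 2 fell (Abca1 and Mylip), 2 rose (Apoe and Abcg1) and 4 were not called, where 49.9% of all genes were called, 26.9% higher and 23.0% lower. The libraries did not overlap for 5 of the 8, as for 57.9% of all genes. The median log2 fold change of the 8 genes was −0.26, 0.09 and 0.03 for RANKL, BMS309403 and RHC80267, against 0.00, −0.01 and 0.02 over all genes tested.

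**Figure D1:**
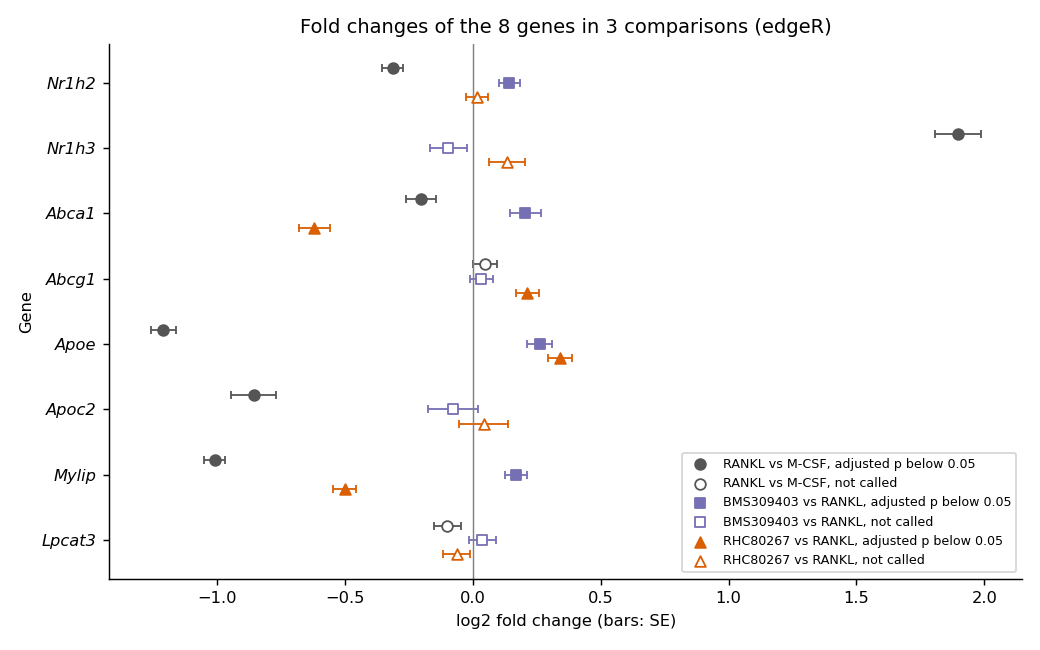
Log2 fold change (horizontal axis) with its SE for each of the 8 genes in 3 comparisons, from edgeR; filled symbols have an adjusted p below 0.05. Nr1h3 stands alone to the right at 1.90 with RANKL, Apoe and Mylip lie at −1.21 and −1.01, and Abca1 and Mylip lie to the left with RHC80267 and to the right with BMS309403.

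Levels of different genes were compared per length, by the authors' FPKM. Apoe stood far above the others in every group, with a mean of 12146 FPKM with M-CSF, 5371 with RANKL, 6250 with BMS309403 and 6947 with RHC80267. It ranked 4th of all 16570 genes in each M-CSF library and 5th to 7th in the others, and its RNA made up 1.16% of the counts with M-CSF and 0.510% with RANKL. The other 7 genes lay between 4.88 and 62.1 FPKM with M-CSF. There Abca1 led at 62.1, followed by Apoc2 at 57.3, Nr1h2 at 49.8, Mylip at 48.1, Lpcat3 at 33.1, Abcg1 at 18.2 and Nr1h3 at 4.88 FPKM. In this order only the libraries of Abca1 and Apoc2 and those of Nr1h2 and Mylip overlapped between neighbours. With RANKL, Abca1 led at 55.1, followed by Nr1h2 at 41.1, Apoc2 at 32.5 and Lpcat3 at 31.6 (these overlapped), Mylip at 24.4, Abcg1 at 19.2 and Nr1h3 at 18.4 FPKM. With BMS309403 the order was the same except that Lpcat3 at 31.6 stood above Apoc2 at 29.5, with overlap, and Apoc2 also overlapped with Mylip at 26.7 FPKM. With RHC80267 Nr1h2 led the 7 at 42.3 FPKM, above Abca1 at 36.9, Apoc2 at 33.8 and Lpcat3 at 31.0, of which Apoc2 overlapped with both others. Below them Abcg1 at 22.9 and Nr1h3 at 20.7 overlapped, and Mylip was the lowest at 17.7 FPKM.

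**Figure D2:**
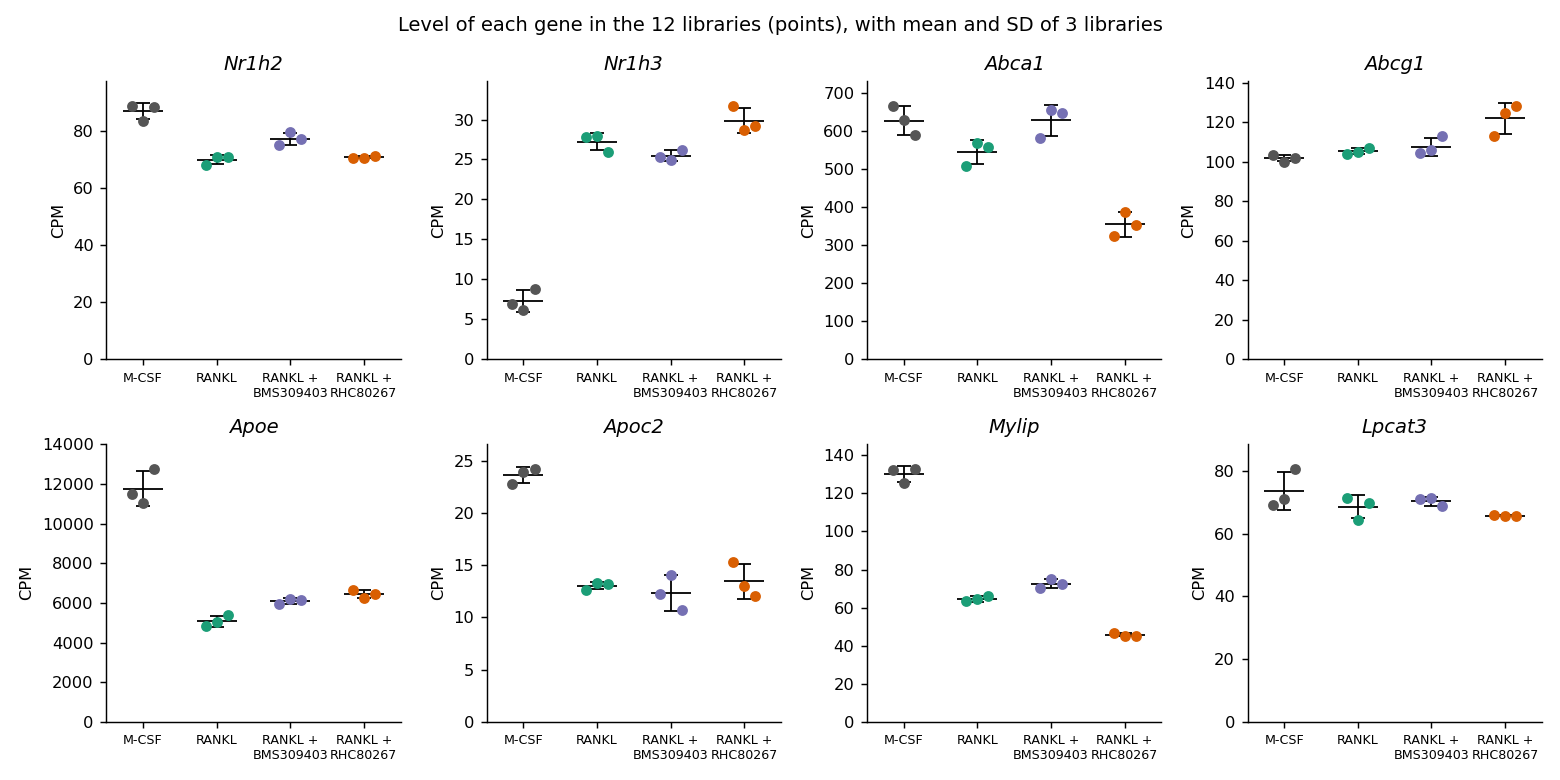
Level in CPM (vertical axis, from 0) of each of the 8 genes in the 12 libraries as points, with the mean and SD of the 3 libraries in each culture. Nr1h3 is lowest with M-CSF, Apoe, Apoc2 and Mylip are highest there, and Abca1 and Mylip are lowest with RHC80267.

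Nr1h2 (gene 22260, chr7:44549616-44553968 on GRCm38) encodes LXRβ, the receptor found in most tissues. Its level was 88.8, 83.8 and 88.5 CPM with M-CSF, 68.1, 70.8 and 71.1 with RANKL, 75.1, 79.7 and 77.1 with BMS309403, and 70.5, 70.7 and 71.2 with RHC80267. Every M-CSF library lay above all others, the BMS309403 libraries lay above the RANKL libraries, and the RHC80267 libraries lay within or just above the range of RANKL. Nr1h2 fell by 0.31 ± 0.04 (log2, SE) with RANKL (edgeR adjusted p = 7.69e-07). BMS309403 raised it by 0.14 ± 0.04 over RANKL (edgeR adjusted p = 0.037), a call that did not hold in 6 alternatives: DESeq2, only these groups fitted, and each of 4 fits that left out RANKL replicate 1 or 2 or BMS309403 replicate 2 or 3. With RHC80267 the difference from RANKL was 0.02 with a 95% interval of −0.08 to 0.11 (edgeR adjusted p = 0.766).

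Nr1h3 (gene 22259, chr2:91184061-91202829) encodes LXRα, the form that is abundant in macrophages, liver and fat. It was measured at 6.95, 6.15 and 8.82 CPM with M-CSF, 27.8, 27.9 and 26.0 with RANKL, 25.3, 24.9 and 26.2 with BMS309403, and 31.7, 28.7 and 29.2 with RHC80267. The M-CSF libraries lay far below the other 9, the RHC80267 libraries were the highest, and those of BMS309403 and RANKL overlapped. Nr1h3 rose by 1.90 ± 0.09 (log2) with RANKL, a 3.72-fold change (edgeR adjusted p = 4.73e-14). It was the only gene of the 8 that rose in that comparison. Its differences from RANKL were −0.10 with BMS309403 (95% interval −0.26 to 0.07, edgeR adjusted p = 0.522) and 0.13 with RHC80267 (95% interval −0.03 to 0.30, edgeR adjusted p = 0.12). In the M-CSF group its coefficient of variation was 18.7%, at a mean of 7.31 CPM and 110 to 157 counts per library. The median there was 4.00% over 8729 genes kept for a higher mean level over the 12 libraries, so most of them were better covered.

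Per length, LXRβ RNA exceeded LXRα RNA in all 12 libraries. The ratio of Nr1h3 to Nr1h2 FPKM was 0.0927, 0.0863 and 0.114 with M-CSF, 0.469, 0.452 and 0.421 with RANKL, 0.388, 0.361 and 0.397 with BMS309403, and 0.524, 0.471 and 0.474 with RHC80267. By FPKM no group overlapped with another, but the highest RANKL library (0.469) and the lowest RHC80267 library (0.471) lay close together. The mean was 0.0978 ± 0.0147 (SD, n = 3) with M-CSF and 0.448 ± 0.0242 (SD, n = 3) with RANKL. By the geometric means of the libraries, the ratio was 4.61 times as high with RANKL as with M-CSF, 0.853 times the RANKL ratio with BMS309403 and 1.09 times with RHC80267. A 2-sided exact permutation test gave p = 0.1 for each of the 6 pairs of groups, which is the smallest p that 3 against 3 libraries allow.

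**Figure D3:**
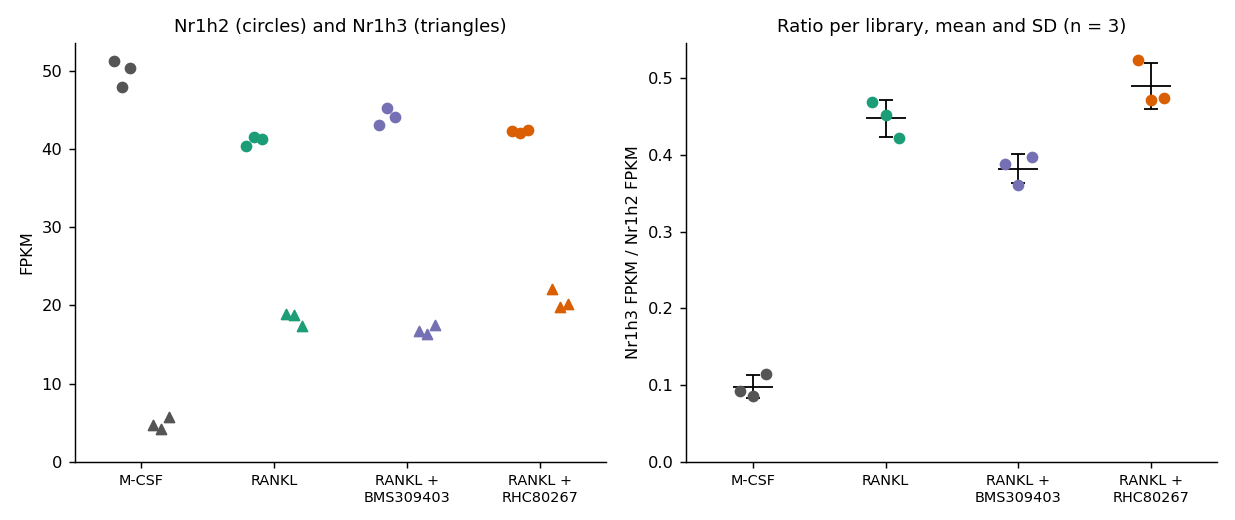
FPKM of Nr1h2 (circles) and Nr1h3 (triangles) per library on the left, and the ratio of Nr1h3 to Nr1h2 FPKM per library with the mean and SD of 3 libraries on the right. The ratio is near 0.1 in the M-CSF libraries and 0.361 to 0.524 in the 9 libraries with RANKL.

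Abca1 (gene 11303, chr4:53030789-53159988) encodes the transporter that loads cholesterol and phospholipid onto lipid-poor apolipoprotein A-I. Its level was 666, 629 and 589.9 CPM with M-CSF, 509.6, 569.96 and 558 with RANKL, 583, 658 and 648 with BMS309403, and 323, 388 and 354 with RHC80267. The RHC80267 libraries lay below all others, and the BMS309403 libraries covered about the range of M-CSF and lay above RANKL. Abca1 fell by 0.20 ± 0.06 (log2) with RANKL (edgeR adjusted p = 0.00553) and by 0.62 ± 0.06 from the RANKL level with RHC80267, where it decreased by 34.9% (edgeR adjusted p = 2.44e-08). With BMS309403 it rose by 0.21 ± 0.06 over RANKL (edgeR adjusted p = 0.038). That call was lost with DESeq2 (adjusted p = 0.11) and without RANKL replicate 1, BMS309403 replicate 2 or BMS309403 replicate 3. Against M-CSF the BMS309403 cultures differed by 0.00 with a 95% interval of −0.13 to 0.14.

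Abcg1 (gene 11307, chr17:31057694-31117984) encodes the transporter that passes cholesterol to mature HDL particles. It was measured at 103, 100.1 and 102 CPM with M-CSF, 104, 105 and 107 with RANKL, 104, 106 and 113 with BMS309403, and 113, 125 and 128 with RHC80267. Its RHC80267 libraries were the highest, and the other 9 lay within 100.1 to 113 CPM. Abcg1 rose by 0.21 ± 0.04 (log2) with RHC80267 over RANKL (edgeR adjusted p = 0.000443), where Abca1 fell. The difference of RANKL from M-CSF was 0.05 with a 95% interval of −0.06 to 0.15 (edgeR adjusted p = 0.374), although the libraries of the groups did not overlap, and that of BMS309403 from RANKL was 0.03 with an interval of −0.07 to 0.14.

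Apoe (gene 11816, chr7:19696244-19701310) encodes apolipoprotein E, which macrophages secrete. Its level was 11497, 11044 and 12762 CPM with M-CSF, 4853, 5011 and 5388 with RANKL, 5939.5, 6203 and 6131 with BMS309403, and 6636, 6241 and 6443 with RHC80267. M-CSF libraries stood far above all others, RANKL libraries were the lowest, and both inhibitor groups lay between them with no overlap. Apoe fell by 1.21 ± 0.05 (log2) with RANKL (edgeR adjusted p = 3.05e-15). It rose by 0.26 ± 0.05 over RANKL with BMS309403 (edgeR adjusted p = 0.00181) and by 0.34 ± 0.05 with RHC80267 (edgeR adjusted p = 4.64e-06). Both inhibitor calls held in every alternative, with BMS309403 values of 0.23 to 0.30 when 1 library was left out. Of 7 macrophage markers, 5 fell and 1 rose with RANKL, where 29.8% of all genes tested were lower and 31.4% higher. With BMS309403 3 rose and 0 fell, where 3.49% of all genes were higher and 3.74% lower. With RHC80267 4 of the markers fell and 1 rose, where 23.0% of all genes were lower and 26.9% higher. The marker that rose with RHC80267 was Mertk, which is itself a known LXR target. Any link of these markers to the level of Apoe was not tested.

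Apoc2 (gene 11813, chr7:19671579-19677941) encodes apolipoprotein C-II, the activator of lipoprotein lipase, and lies in the same cluster on the same strand as Apoe. It stood at 22.8, 23.9 and 24.2 CPM with M-CSF, 12.6, 13.3 and 13.2 with RANKL, 12.3, 14.1 and 10.7 with BMS309403, and 15.3, 13.0 and 11.999 with RHC80267. The M-CSF libraries lay above the other 9, which overlapped each other. Apoc2 fell by 0.86 ± 0.09 (log2) with RANKL and so decreased by 44.8% (edgeR adjusted p = 2.20e-08). Its differences from RANKL were −0.08 with BMS309403 (95% interval −0.30 to 0.15) and 0.04 with RHC80267 (95% interval −0.18 to 0.26). In GENCODE's gene models Apoc2 shares 646 exon bases with Gm44805 on its strand, but whether the counting used that model is not known. Some of the Apoc2 counts are not whole, so its level is uncertain where reads were split.

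The neighbours of Apoe and Apoc2 in the cluster, Apoc4 and Apoc1, had few reads. Apoc4 lies 142 bases from Apoc2 and had 1 to 8 counts per library, and Apoc1 lies 3584 bases from Apoe and had 6 to 23 counts. Apoc2 had 191 to 431 counts and Apoe 88790 to 227189. Apoc1, a known LXR target too, passed the filter and had a log2 value of −1.11 ± 0.37 with RANKL (edgeR adjusted p = 0.0131), with 11, 11 and 23 counts in the M-CSF libraries and 9, 6 and 6 in those of RANKL. Without M-CSF replicate 3 the value was −0.66 and the call was lost (edgeR adjusted p = 0.185), as it was with DESeq2 (adjusted p = 0.0657).

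Mylip (gene 218203, chr13:45389742-45412019) encodes the ubiquitin ligase also called IDOL, which sends lipoprotein receptors to degradation. Its level was 132, 125 and 133 CPM with M-CSF, 63.3, 64.4 and 66.2 with RANKL, 70.3, 75.0 and 72.5 with BMS309403, and 46.7, 45.2 and 45.1 with RHC80267. No pair of groups overlapped, and the order was M-CSF, BMS309403, RANKL, RHC80267. Mylip fell by 1.01 ± 0.04 (log2) with RANKL (edgeR adjusted p = 3.22e-15), and by 0.50 ± 0.04 from the RANKL level with RHC80267 (edgeR adjusted p = 6.15e-09). With BMS309403 it rose by 0.17 ± 0.04 (edgeR adjusted p = 0.0188), a call lost without RANKL replicate 1, RANKL replicate 2 or BMS309403 replicate 2 (highest adjusted p = 0.112).

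Lpcat3 (gene 14792, chr6:124663094-124704716) encodes the enzyme that puts polyunsaturated fatty acids into membrane phospholipids. It stood at 69.1, 70.95 and 80.6 CPM with M-CSF, 71.5, 64.5 and 69.8 with RANKL, 71.0, 71.3 and 68.7 with BMS309403, and 65.9, 65.5 and 65.6 with RHC80267. M-CSF replicate 3 stood above the other 11 libraries, which lay within 64.5 to 71.5 CPM. RANKL differed from M-CSF by −0.10 (log2; 95% interval −0.22 to 0.02). BMS309403 differed from RANKL by 0.04 (interval −0.08 to 0.16) and RHC80267 differed from it by −0.06 (interval −0.18 to 0.06), and none of the 3 was called. Without M-CSF replicate 1, Lpcat3 was called lower with RANKL at −0.15 (edgeR adjusted p = 0.0283). In GENCODE's gene models Lpcat3 shares 334 exon bases with Emg1 on the opposite strand. Its counts are not whole, and whether the counting used strand or these models is not given in the sources used here.

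BMS309403 and RHC80267 were given at the same dose and time and could be compared directly in 1 pair. RHC80267 libraries were lower for 3 genes and higher for 2, where 55.5% of all genes tested were called, 30.1% higher and 25.5% lower, and the libraries did not overlap for 7 of the 8, as for 61.7% of all genes. Abca1 had a log2 value of −0.83 ± 0.06 (edgeR adjusted p = 1.66e-10) and Mylip −0.67 ± 0.04 (edgeR adjusted p = 3.31e-11). Nr1h2 had −0.13 ± 0.04 (edgeR adjusted p = 0.0123). Abcg1 was higher with RHC80267 by 0.18 ± 0.04 (edgeR adjusted p = 0.00171). Nr1h3 was higher by 0.23 ± 0.07 (edgeR adjusted p = 0.00902), a call lost without BMS309403 replicate 1 or 2 or RHC80267 replicate 1 (adjusted p = 0.0505, 0.0527 and 0.0566). Apoe differed by 0.08 with a 95% interval of −0.03 to 0.19, Apoc2 by 0.12 (−0.10 to 0.35) and Lpcat3 by −0.10 (−0.22 to 0.02), which was called when only these groups were fitted (edgeR adjusted p = 0.0223).

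Set against M-CSF alone, 5 of the 8 genes were called with BMS309403 added to RANKL (1 higher, 4 lower), where 57.0% of all genes were called, 29.7% higher and 27.3% lower, and the libraries did not overlap for 6, as for 62.1% of all genes. All 8 were called with RHC80267 and RANKL (2 higher, 6 lower), where 70.4% were called, 36.0% higher and 34.4% lower, and none overlapped, as for 72.5% of all genes. Mylip had the lowest value of the 8 with RHC80267, −1.51 ± 0.04 on the log2 scale (edgeR adjusted p = 3.09e-18), followed by Apoe at −0.87. Abca1, which with BMS309403 stood at its M-CSF level, was at −0.82 with RHC80267, and Nr1h3 was at 1.80 with BMS309403 and 2.03 with RHC80267. The call of Lpcat3 with RHC80267 (−0.16, edgeR adjusted p = 0.00845) was lost without M-CSF replicate 3.

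The wider pathway was followed in 8 lists of genes that make LXR ligands, act beside the receptors or work with the targets. They hold 94 genes, of which 83 passed the filter, and only Vldlr and Lrp8 are in more than 1 list. With RANKL 21 of the 83 rose and 43 fell. With BMS309403 8 rose and 4 fell, and with RHC80267 19 rose and 29 fell against RANKL. The share called was 77.1% with RANKL, 14.5% with BMS309403 and 57.8% with RHC80267, beside 61.2%, 7.23% and 49.9% of all genes tested. Of the 83, 25.3% were higher and 51.8% lower with RANKL (all genes 31.4% and 29.8%), 9.64% and 4.82% with BMS309403 (3.49% and 3.74%), and 22.9% and 34.9% with RHC80267 (26.9% and 23.0%). The counts of each list below stand beside these shares of all genes, and with 5 to 15 genes a list 1 gene moves a share widely. The median log2 fold change of the 83 was −0.20, −0.01 and −0.02, against 0.00, −0.01 and 0.02 over all genes tested.

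Of the RXR partners and coregulators of LXR, 10 of 15 fell and 1 rose with RANKL. Rxra, an RXR form, fell from 182 ± 6.00 to 116 ± 7.12 CPM (SD, n = 3), a log2 value of −0.65 ± 0.05. Another form, Rxrb, was not called with RANKL (0.01 ± 0.04) and stood at 59.6 CPM with M-CSF and 60.1 CPM with RANKL. The coactivators Ncoa3, Ncoa1 and Ncoa2 had −0.50, −0.33 and −0.30. With BMS309403 edgeR called 0 of the 15, with 5 at an unadjusted p below 0.05, and DESeq2 and limma-voom also called 0. RHC80267 raised 4 and lowered 0 of the 15 by edgeR: Rxrb by 0.48, Ncoa3 by 0.30, the acetyltransferase Ep300 by 0.32 and its relative Crebbp by 0.15. The Crebbp call was lost without RANKL replicate 1 or RHC80267 replicate 3.

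Among the enzymes that make or clear LXR ligands, 3 of 5 fell and 1 rose with RANKL. Cyp27a1, which makes 27-hydroxycholesterol, had −0.80 ± 0.06, Cyp51, the lanosterol demethylase of cholesterol synthesis, had −0.61 ± 0.06, and Ch25h, which makes 25-hydroxycholesterol, had −1.86 ± 0.49. Ch25h was low, at 0.953 ± 0.279 CPM with M-CSF and 0.258 ± 0.209 CPM with RANKL (SD, n = 3), and leaving out 1 library gave −2.73 (without RANKL replicate 2) to −1.51, each still called. Hsd3b7, which acts on hydroxylated sterols in bile acid synthesis, rose by 1.00 ± 0.06. With RHC80267 Cyp51 fell by 1.05 ± 0.07 from the RANKL level, and Hsd3b7 rose by 0.49. With BMS309403 Cyp27a1 rose by 0.28 ± 0.06 (edgeR adjusted p = 0.00793) and Hsd3b7 fell by 0.21 (edgeR adjusted p = 0.0155).

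Of 15 other known LXR targets, 8 fell and 3 rose with RANKL, and 11 fell and 1 rose with RHC80267. The share lower was 53.3% with RANKL and 73.3% with RHC80267, where 29.8% and 23.0% of all genes were lower. With RANKL the secreted macrophage protein gene Cd5l had −2.64 ± 0.08, the lipase gene Lpl −0.47, the dead-cell receptor gene Mertk −0.58 and Ttc39b 0.67. With RHC80267 Ttc39b had −0.68, Eepd1 −0.52 and the phospholipid transfer protein gene Pltp −0.34, and Mertk rose by 0.62 ± 0.06. BMS309403 raised only Pltp of the 15, by 0.20 (edgeR adjusted p = 0.0158). Mertk is also in the macrophage marker list and Lpl in the adipocyte list, of which the defining gene Adipoq had at most 0.04 CPM in any group.

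Of 15 genes that move or store cholesterol inside the cell, 7 fell and 3 rose with RANKL, and the same counts were found with RHC80267 against RANKL. The 66.7% called in each is near the 61.2% of all genes called with RANKL and above the 49.9% called with RHC80267, and the share lower was 46.7% in both. Scarb1, the HDL receptor, had −0.78 ± 0.04 with RANKL, the sterol carrier Stard4 −0.77, the lysosomal membrane protein gene Scarb2 −0.50 and the lysosomal lipase gene Lipa −0.40. With RHC80267 the cholesterol ester hydrolase gene Nceh1 had −0.67 ± 0.04, Stard4 −0.69, the sterol transporter gene Gramd1b −0.59 and its relative Gramd1a 0.30. With BMS309403 3 rose and 0 fell: Soat1, which esterifies cholesterol, by 0.17, Nceh1 by 0.16 and Lipa by 0.14.

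Of 10 other transporters of the ABCA and ABCG families, 4 rose and 4 fell with RANKL. Abca6 had 1.12, Abcg3 0.91, Abca9 −0.85 and Abca3 −0.56. With RHC80267 2 rose (Abca2 by 0.41 and Abcg3 by 0.33) and 2 fell (Abca13 at −0.85 and Abcg2 at −0.42). With BMS309403 Abca9 rose by 0.23 and Abca2 fell by 0.23.

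Among the receptors that MYLIP degrades and the proteins it works with, 2 of 6 fell and 2 rose with RANKL, and 3 fell and 1 rose with RHC80267. The receptor gene Lrp8 had −1.22 ± 0.08 with RANKL and −0.53 ± 0.09 with RHC80267, and the VLDL receptor gene Vldlr had 0.68 and 0.75 in these comparisons. The deubiquitinase gene Usp2 had −0.65 with RANKL, and the ubiquitin-conjugating enzyme gene Ube2d2a had −0.11 with RHC80267, a call lost when RANKL replicate 3 or RHC80267 replicate 1 or 2 was left out. The related Ube2d3 had 0.10 with RANKL and −0.09 with RHC80267, and each of these calls was lost when single libraries were left out (in 3 and 5 of the 6 such fits). With BMS309403 edgeR called 0 of the 6, and 0 had an unadjusted p below 0.05.

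All 8 receptors of apolipoprotein E followed were called with RANKL, 6 lower and 2 higher. Trem2, the lipid receptor of macrophages, had −0.81 ± 0.04, the sorting receptor gene Sort1 −0.88, and Hspg2, the gene of the proteoglycan perlecan, 3.49 ± 0.26. With RHC80267 4 fell and 3 rose, with Trem2 at −0.35, Sort1 at 0.28 and Hspg2 at 1.20. With BMS309403 Trem2 rose by 0.15 (edgeR adjusted p = 0.0363) and Hspg2 fell by 0.56 (edgeR adjusted p = 0.0463). Hspg2 was low, at 3.59 ± 0.426 CPM with BMS309403 and 5.30 ± 1.38 CPM with RANKL (SD, n = 3). Its call was kept in only 4 of 13 alternatives. It was lost with DESeq2, limma-voom, the replicate block, only these groups fitted and most fits that left out 1 library. The Trem2 call was kept in 9 of 13 and lost only when single libraries were left out.

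Other genes of lysophospholipid acyltransferases, the class of enzyme by activity to which LPCAT3 belongs, changed in both directions while Lpcat3 was not called. Of 11 such genes, 6 rose and 4 fell with RANKL, among them Lpcat1 at 0.77, Agpat4 at 1.16, Agpat3 at −0.89 and Agpat2 at −0.63. With RHC80267 5 rose and 2 fell, with Lpcat2 at −0.95 ± 0.05, Agpat1 at 0.38, Agpat5 at 0.27 and Lpcat1 at 0.26. With BMS309403 Agpat3 rose by 0.18 and Lpcat1 fell by 0.16.

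The BMS309403 calls in these lists depended on single libraries, and that of Hspg2 also on the method. Without RANKL replicate 1 edgeR called 0 of the 83 genes, with 23 at an unadjusted p below 0.05, and without BMS309403 replicate 2 it called 1 higher and 0 lower. With all libraries DESeq2 called 10 higher and 3 lower, and limma-voom 9 higher and 3 lower.

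**Figure D4:**
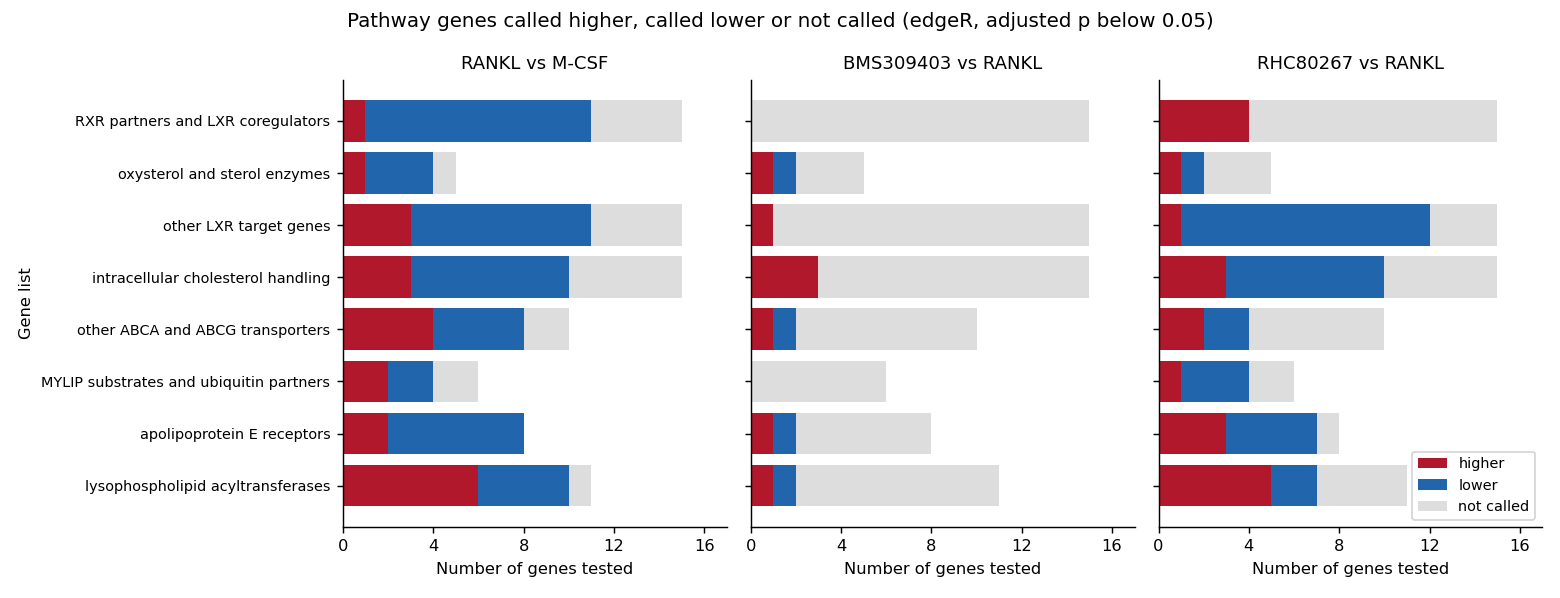
Number of genes tested (horizontal axis) in each of the 8 lists that were called higher, called lower or not called by edgeR, for RANKL against M-CSF, BMS309403 against RANKL and RHC80267 against RANKL. The middle panel is mostly grey, with 8 genes higher and 4 lower of 83, and 11 of 15 other LXR targets are lower in the right panel.

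The genes whose level followed each of the 8 most closely were ranked by Pearson's r of log2 CPM over the 12 libraries, among 7096 others with a mean of at least 20 CPM. The libraries fall into 4 groups, so a high r mostly describes the order of the group means, and no p is given. Nr1h3 was followed by Car2 (r = 0.997), the gene of the acid-forming carbonic anhydrase of osteoclasts, by Spns2 and by Mst1r. These stood at only 0.206, 0.635 and 0.0374 CPM with M-CSF, and passed the mean of 20 CPM through the groups with RANKL. Apoe was followed by Slc11a1 (r = 0.997), a phagosome metal transporter gene of macrophages, by Gstm1 and by Pdlim4. Mylip was followed by Hps3 (r = 0.997), Ncf1 and Il4ra. Abca1 was followed by Sulf2 (r = 0.990), Slfn8 and Sidt2, Nr1h2 by Aoah (r = 0.985), Map3k1 and Itm2c, and Abcg1 by Trim37 (r = 0.974), Poglut3 and Herpud2. The closest genes to Apoc2 were Pwwp2a (r = 0.965), Saa3 and Tmem131l, and those to Lpcat3 included Pycard (r = 0.898) and Rab28. Saa3 passed the mean of 20 CPM only through the M-CSF libraries, at 317 ± 106 CPM (SD, n = 3). It stood at 1.12 CPM with RANKL, 1.27 with BMS309403 and 1.80 with RHC80267, so its r describes 1 group against the rest.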

How the data were processed

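For each gene, the authors deposited 1 read count and 1 FPKM value per library, per the file headers. The deposited counts hold 9.49% to 9.89% fractional values in each library and were taken for RSEM's expected counts, then rounded. The submitters' processing notes name RSEM 1.3.1, Bowtie2 and DESeq2 1.4.5, without their order. Another 24 columns of per-library values were not used. The filter filterByExpr, by group, left 12168 genes to test and dropped 4402. All 12 libraries entered 1 quasi-likelihood fit (edgeR 4.0.16, R 4.3.3) with TMM factors of 0.978 to 1.04, a term for the group and 8 residual degrees of freedom. The p-values were adjusted by Benjamini-Hochberg over all genes tested. The 95% intervals were built from the SE with these 8 degrees of freedom. The test itself uses more, so the intervals are somewhat wider than the test implies. The fit was also run on counts simulated with its own estimates of spread, for BMS309403 against RANKL only. Such a run cannot show that the model suits the real libraries. The FPKM values the authors deposited were used to compare genes with each other.

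The genes, the pathway and marker lists and the tests were chosen with earlier results of these data known. Of each pathway list, the up to 4 genes with the smallest p in a comparison were named, further ones after their values were seen. Of the 9 genes the choice by symbol gave, 1 is not reported here, nor are some genes of the pathway lists. Markers of 11 cell types were checked. T or NK cell markers summed to at most 1.60 CPM, B cell markers to 15.5, mast cell markers to 11.8, endothelial markers to 19.1, dendritic cell markers to 69.7, erythroid and megakaryocyte markers to 307 and adipocyte markers to 1321. Alternatives were RLE factors, DESeq2 1.42.0, limma-voom (limma 3.58.1), other filters, a replicate block, only the groups compared, and each library left out. All p-values are 2-sided.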

Additional observations from a re-analysis of the deposited data

How the results depend on the processing

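Over the 48 comparisons of a gene, 624 fits under alternatives were made: 596 kept the direction and the side of the threshold, 17 lost a call, 2 gained one and 9 turned the sign of a value that was not called. The BMS309403 comparison with RANKL was the least stable: leaving out 1 library gave 263 to 1011 genes called in place of 880 and 1 to 4 of the 8 genes in place of 4, and DESeq2 called 2 of the 8. The cause was not tested. The values that turned were the following. Abca1 with BMS309403 against M-CSF was −0.000683 with the replicate block and −0.0407 to 0.0574 when 1 library was left out, below 0 without M-CSF replicate 3, BMS309403 replicate 2 or BMS309403 replicate 3. Lpcat3 in that comparison was −0.105 to 0.00677, above 0 without M-CSF replicate 3. Apoc2 with BMS309403 against RANKL was −0.181 to 0.0252, above 0 without BMS309403 replicate 3. Nr1h2 with RHC80267 against RANKL was −0.00648 with only these groups fitted and −0.00373 to 0.0273 when 1 library was left out, below 0 without RANKL replicate 1. Apoc2 in that comparison was −0.060 to 0.118, below 0 without RHC80267 replicate 1. Same-numbered libraries did not deviate together in every pair (r = −0.215 to 0.152). Between RHC80267 and BMS309403 each library matched its own number best, at a low r of 0.0909, 0.0773 and 0.0673. The labels do not say that a number marks a shared animal or batch, so the numbers were not taken to pair the samples. With the replicate block 7384 genes were called for RANKL against M-CSF, 859 for BMS309403 and 6044 for RHC80267 against RANKL, 6727 for RHC80267 against BMS309403, and 6911 and 8549 for BMS309403 and RHC80267 against M-CSF, and the count of the 8 genes called was as without it (6, 4, 4, 5, 5 and 8). Low counts limit Nr1h3 in the M-CSF cultures and Apoc2, at 191 to 431 counts per library.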
